A study of Mus musculus with 24 samples.

Results

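A set of 10 mouse genes that shifted in the same direction in every mutant line of a CTCF series, without a call when CTCF was depleted, is described here across all 12 groups of the series. The tables hold 55291 gene symbols, of which 18713 had a mean of at least 10 normalized counts and were tested. The 10 genes were picked from earlier results of these data as different from WT ID in the same direction in all 9 mutant lines and not different in WT IAA. Under that rule 124 tested genes were called the same way in 9 lines, 58 of them were also called in WT IAA, and 66 (0.353% of those tested: 39 higher, 0.208%, and 27 lower, 0.144%) were not. All 10 members lie among the 66, at ranks 4 to 25 by their mean absolute log2 fold change, and all 10 passed the filter on low counts. Hhip, Raet1d and Clip4 were higher in the mutants, and Olfr459, Arhgef38, Clca3b, Aass, Klhl13, Nefm and Kirrel2 were lower. Because the values of the mutants and of WT IAA against WT ID chose these genes, those values are given as a description and support nothing.

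The cells are E14Tg2a mouse embryonic stem cells of the 129/Ola strain, grown without feeders in serum with LIF and inhibitors of GSK3 (CHIR99021) and MEK (PD0325901). All of them carry endogenous CTCF fused to an auxin-inducible degron, a tag that leads to destruction of the protein when indole-3-acetic acid (IAA) is added. Each line also holds a doxycycline-inducible Ctcf transgene, either wild type or with 1 of 9 substitutions (R339Q, R342C, S354F, K365T, R377C, R377H, Q418R, R448Q, H455R). WT UN cells were untreated, WT IAA cells received 500 uM IAA only, and WT ID and every mutant group received 500 uM IAA with 1 ug/ml doxycycline, for 2 days. By design, WT IAA lacks endogenous CTCF with no transgene induced, WT ID has the wild-type transgene in its place, and the mutant groups have a mutant transgene. Protein levels were not measured in these files. Each group has 2 libraries of total RNA. A substitution stands for 1 cell line, so the effect of the substitution and other properties of that line cannot be told apart, and the transgene line of the WT groups is shared by every comparison with WT ID. The labels do not say whether the 2 libraries of a group came from separate cultures, so the tests measure the spread between these libraries, which may be technical.

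Libraries held 27.8 to 77.1 M gene-assigned reads. Summed levels of 9 embryonic stem cell markers were 8940 to 10970 TPM (a transcript level corrected for gene length and library total) in the 6 WT libraries and 8724 to 11352 TPM in the 18 mutant libraries. Of 8 fibroblast markers, 6 were under 1 TPM, and their sum was at most 10.2 TPM in any library. Neural markers, relevant to Nefm, summed to 181 to 246 TPM in WT and 155 to 411 TPM in mutant libraries, with Pax6, Neurog2 and Dcx among those under 1 TPM in both sets. Primitive endoderm markers summed to 66.2 to 115 TPM in WT and 96.5 to 168 TPM in mutant libraries. Of these markers, Sox17 and Sox7 were under 1 TPM in both sets, and Foxq1 and Amn in the WT set only. The part of primitive endoderm markers in the results was not tested. Mitochondrial genes took 1.62% to 2.18% of gene-assigned reads in WT and 1.22% to 3.38% in mutant libraries. Ctcf RNA was 125 to 126 TPM in WT UN, 141 to 145 in WT IAA, 155 to 160 in WT ID and 141 to 284 in the mutants. The degron acts on the protein, so this RNA does not check the depletion.

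CTCF is a zinc finger protein that binds DNA and, with cohesin, forms the anchors of chromatin loops and the borders of topological domains. It can keep enhancers of one domain from acting on promoters of the next, and it also binds many promoters directly. The 10 genes do not belong to a common pathway. They comprise a secreted antagonist of hedgehog ligands (Hhip), a surface ligand of an immune receptor (Raet1d), proteins of the cytoskeleton or its control (Clip4, Nefm, Arhgef38), surface proteins (Kirrel2, Olfr459), a member of the chloride channel accessory family (Clca3b), a mitochondrial enzyme (Aass) and a ubiquitin ligase adaptor (Klhl13).

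Promoter letters were taken from RefSeq (GRCm38.p6), where 9 of the 10 genes matched by symbol, with 16 windows of 250 bases before a transcript start. A 12-letter core of the CTCF motif (CCA, any 2 bases, AG, any 2 bases, GGC), searched on both strands, occurred in none of the 16 windows and in 2.07% of 32851 windows of all genes. TATAAA occurred in the windows of Olfr459 and Arhgef38, and in 12.4% of all windows. Of the 9 genes, Hhip alone had a window with at least 50% GC and a CpG ratio (observed to expected) of at least 0.6, a property of 31.0% of all windows. Its window had 76.0% GC and a ratio of 0.80. Windows of 3 genes are shown: that of the gene with the largest rise, and those of the 2 genes with the deepest median fall, whose only capitals mark TATAAA or its reverse complement.
Hhip, chr8:80058009-80058258, minus strand: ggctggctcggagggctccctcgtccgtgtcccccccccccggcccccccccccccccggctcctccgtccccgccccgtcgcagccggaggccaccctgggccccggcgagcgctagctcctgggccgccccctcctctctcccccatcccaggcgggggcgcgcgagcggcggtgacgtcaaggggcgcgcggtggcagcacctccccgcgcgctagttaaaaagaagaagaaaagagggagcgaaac
Olfr459, chr6:41772298-41772547, minus strand: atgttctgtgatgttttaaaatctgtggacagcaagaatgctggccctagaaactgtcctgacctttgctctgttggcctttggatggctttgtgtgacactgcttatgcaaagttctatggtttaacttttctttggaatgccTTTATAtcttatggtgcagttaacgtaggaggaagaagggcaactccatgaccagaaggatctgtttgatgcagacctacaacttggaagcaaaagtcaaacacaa
Arhgef38, chr3:133234950-133235199, minus strand: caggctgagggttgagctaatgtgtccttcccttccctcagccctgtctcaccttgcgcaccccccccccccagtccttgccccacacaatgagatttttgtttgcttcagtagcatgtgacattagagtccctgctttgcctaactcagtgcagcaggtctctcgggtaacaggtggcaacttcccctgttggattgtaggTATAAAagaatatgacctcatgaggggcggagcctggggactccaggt
The TATAAA match began 48 bases before the RefSeq start shown for Arhgef38, on the gene's own strand, and 108 bases before its other RefSeq start. For Olfr459 it began 106 bases before the RefSeq start, on the other strand. That window lies inside the span given below for Olfr459, so it is not the sequence before the start of that span. The windows of Raet1d and Clip4 and some of Klhl13 also lie inside the spans given for these genes. The windows differed: Hhip was rich in CpG without TATAAA, and Olfr459 and Arhgef38 were poor in CpG. Letters of this kind describe the window and say nothing of what bound there.

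Among the 3 genes that were higher, Hhip (ENSMUSG00000064325.4, mm10 chr8:79965851-80058006, minus strand) encodes a membrane or secreted protein that binds hedgehog ligands and limits their signalling. Its level was 0.609 and 0.376 TPM in WT ID, 0.459 and 0.355 in WT IAA and 0.201 and 0.314 in WT UN. In the mutants it was 0.832 and 0.867 TPM in Q418R, 1.25 and 1.30 in S354F, 1.62 and 1.38 in R339Q, 2.10 and 1.29 in H455R, 1.80 and 1.66 in R342C, 2.00 and 1.90 in R377C, 1.90 and 2.41 in R377H, 3.30 and 3.72 in K365T, and 9.46 and 5.10 in R448Q. No mutant library fell into the WT range. Against WT ID the log2 fold change ran from 0.91 ± 0.27 (SE) in Q418R to 4.0 ± 0.27 in R448Q, or 1.88-fold to 16-fold, and was -0.26 ± 0.27 in WT IAA. The gene thus stayed below 1 TPM in the WT libraries, with 18 to 97 reads each, and in Q418R, and was highest in K365T and R448Q. Gm27820 lies within its span on the other strand.

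Raet1d (ENSMUSG00000078452.10, chr10:22360552-22374139, plus strand) encodes a RAE-1 protein, a cell-surface ligand of the activating receptor NKG2D of natural killer and T cells. WT ID libraries held 0.909 and 0.907 TPM, WT IAA 0.947 and 1.40, and WT UN 1.47 and 1.52. The mutant libraries ranged from 1.71 to 8.52 TPM with a median of 2.92, lowest in S354F (1.71 and 1.80) and highest in K365T (6.03 and 5.23) and R448Q (8.52 and 6.13). The WT and mutant ranges did not overlap, though the gap between WT UN and S354F was small. Log2 fold changes against WT ID were 0.90 ± 0.28 in S354F (1.87-fold) to 3.09 ± 0.28 in R448Q (8.51-fold), and 0.31 ± 0.28 in WT IAA. Its span lies within that of Raet1e, a close relative on the same strand, and how the counting split reads between them is not given, so the level of each is uncertain. S354F also lay just inside the rule (adjusted p 0.0463).

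Clip4 (ENSMUSG00000024059.10, chr17:71768473-71864273, plus strand) belongs to the family of CAP-Gly proteins, which bind microtubule ends. It was listed at 1.37 and 1.35 TPM in WT ID, 1.18 and 1.30 in WT IAA and 0.962 and 0.822 in WT UN. Mutant libraries held 1.92 to 6.75 TPM with a median of 4.27. Q418R was lowest (2.90 and 1.92 TPM), followed by H455R (3.23 and 3.25), and R448Q was highest (6.75 and 6.06). Log2 fold changes against WT ID were 0.89 ± 0.14 in Q418R (1.85-fold) to 2.40 ± 0.14 in R448Q (5.27-fold), and -0.15 ± 0.14 in WT IAA. Neighbouring genes moved with it, as described below for chromosome 17.

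The 7 lower genes include an enzyme and a ubiquitin ligase adaptor with high levels in WT cells. Aass (ENSMUSG00000029695.13, chr6:23072173-23132986, minus strand) encodes the mitochondrial enzyme that starts the main route of lysine breakdown. It stood at 23.2 and 20.1 TPM in WT ID, 20.9 and 19.0 in WT IAA and 30.1 and 29.2 in WT UN. Mutant libraries held 2.09 to 9.08 TPM (median 6.97), with R448Q (2.42 and 2.09) and R339Q (2.78 and 3.41) apart from the other 7 lines, all between 5.23 and 9.08. Its log2 fold change against WT ID was -1.23 ± 0.19 in Q418R (2.34-fold lower) to -3.09 ± 0.19 in R448Q (8.5-fold lower), and -0.13 ± 0.19 in WT IAA.

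Klhl13 (ENSMUSG00000036782.13, chrX:23219271-23365082, minus strand) encodes a substrate adaptor of cullin 3 ubiquitin ligases with a role in cell division, and was by far the most abundant of the 10. WT ID held 374 and 323 TPM, WT IAA 338.6 and 298, and WT UN 358 and 312. The 18 mutant libraries held 55.7 to 210 TPM with a median of 105. R339Q was lowest (55.7 and 79.4 TPM) and Q418R highest (150 and 210), and the highest mutant library stayed below the lowest WT library. Log2 fold changes ran from -0.88 ± 0.16 in Q418R (1.83-fold lower) to -2.41 ± 0.16 in R339Q (5.31-fold lower), and the value in WT IAA was -0.14 ± 0.16. In the other 7 lines the log2 fold change lay between -1.40 and -1.95. Gm14523 overlaps Klhl13 on the same strand.

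Arhgef38 (ENSMUSG00000040969.14, chr3:133112278-133234949, minus strand) encodes a guanine nucleotide exchange factor, a kind of protein that activates small GTPases. Its level was 13 and 10.8 TPM in WT ID, 11.2 and 8.05 in WT IAA and 9.81 and 7.68 in WT UN. Mutant libraries held 0.910 to 5.33 TPM with a median of 2.89. K365T was lowest (1.57 and 0.910 TPM), with R377H (2.01 and 1.43) and Q418R (1.68 and 1.93) next, and R342C was highest (5.33 and 4.36). Log2 fold changes against WT ID were -1.40 ± 0.22 in R342C (2.64-fold lower) to -3.22 ± 0.22 in K365T (9.34-fold lower), and -0.34 ± 0.22 in WT IAA.

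Olfr459 (ENSMUSG00000045479.7, chr6:41768770-41775177, minus strand) carries the name of an olfactory receptor, a family of odorant receptors usually active in single nasal neurons. Stem cells of the WT groups held 3.27 and 2.74 TPM (WT ID), 4.46 and 4.47 (WT IAA) and 5.20 and 5.36 (WT UN). In the mutants it was 0.943 and 1.79 TPM in R339Q, 1.25 and 1.29 in S354F, 1.2 and 1.08 in H455R, 1.00 and 0.751 in R377C, 0.866 and 0.647 in R342C, 0.262 and 0.331 in Q418R, 0.331 and 0.239 in R448Q, 0.194 and 0.138 in R377H, and 0.0720 and 0.0620 in K365T. Hence 5 lines lay near 1 TPM and 4 lines below 0.4 TPM. Log2 fold changes were -1.21 ± 0.30 in R339Q (2.32-fold lower) to -5.06 ± 0.30 in K365T (33.4-fold lower). The K365T libraries held only 4 and 3 reads of this gene, and those of R377H 9 and 7, so these sizes are imprecise. WT IAA was 0.56 ± 0.30 above WT ID, opposite in sign to the mutants.

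Clca3b (ENSMUSG00000037033.9, chr3:144822623-144849357, minus strand) belongs to the calcium-activated chloride channel accessory family, secreted or membrane proteins of epithelia. WT ID held 15.9 and 11.4 TPM, WT IAA 16.7 and 10.4, and WT UN 15.1 and 8.98. In 6 lines the level was 4.04 to 7.18 TPM, R448Q followed with 3.33 and 3.20, and K365T (1.29 and 0.715) and R377H (0.422 and 0.499) were far lower. Log2 fold changes were -0.93 ± 0.24 in Q418R (1.91-fold lower) to -4.72 ± 0.24 in R377H (26.4-fold lower), against -0.05 ± 0.24 in WT IAA. Gm16215 overlaps it on the other strand, and the strand setting of the counting is not given in the sources used here.

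Nefm (ENSMUSG00000022054.11, chr14:68082590-68124846, minus strand) encodes the medium neurofilament subunit of the neuronal cytoskeleton. It was at 23.9 and 19.4 TPM in WT ID, 24.3 and 20.7 in WT IAA and 16.7 and 15.1 in WT UN. Mutant libraries held 2.14 to 14.1 TPM with a median of 9.16, lowest in R448Q (2.14 and 3.00) and highest in S354F (11.4 and 14.1). The closest pair of WT UN and mutant libraries, 15.1 and 14.1 TPM, hardly differed. Log2 fold changes were -0.77 ± 0.18 in S354F (1.71-fold lower) to -2.92 ± 0.18 in R448Q (7.55-fold lower), and 0.04 ± 0.18 in WT IAA. Nefl and Gm19216 overlap it on the other strand.

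Kirrel2 (ENSMUSG00000036915.17, chr7:30447534-30457690, minus strand) encodes an immunoglobulin-like adhesion protein related to nephrin. Its level was 22.2 and 27.1 TPM in WT ID, 20.1 and 24.5 in WT IAA and 34.0 and 29.4 in WT UN. K365T (5.46 and 3.44) and R448Q (3.67 and 2.73) were far below the other 7 lines, which held 9.05 to 18.4 TPM. The highest mutant library, 18.4 TPM in Q418R, came close to the lowest WT library. Log2 fold changes were -0.67 ± 0.24 in Q418R (1.59-fold lower) to -2.78 ± 0.24 in R448Q (6.88-fold lower), and -0.16 ± 0.24 in WT IAA.

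**Figure D1:**
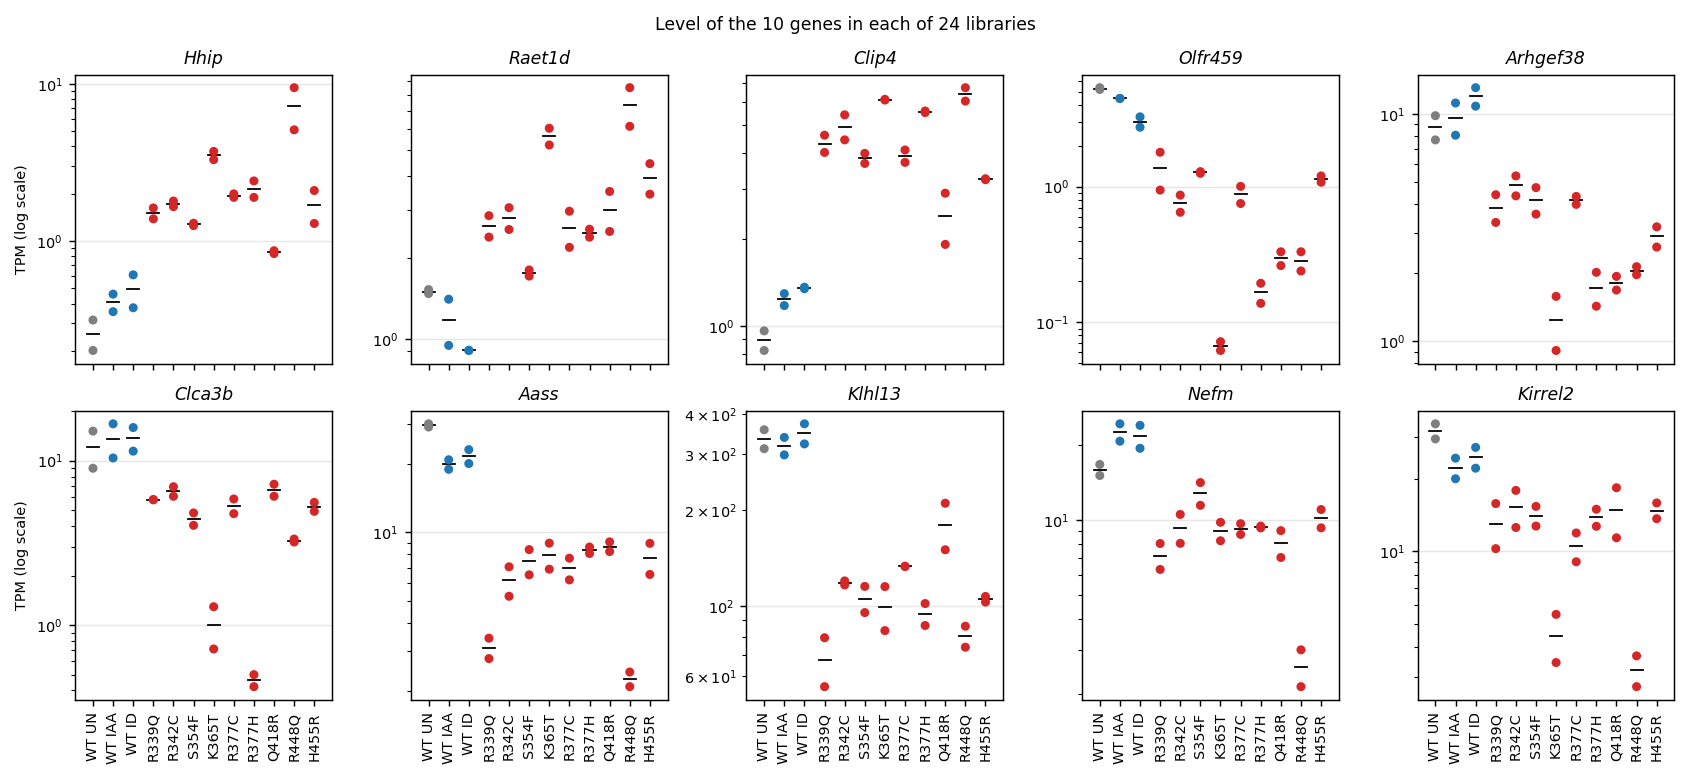
TPM (log axis, range set per gene) of the 10 genes in each of 24 libraries, with WT UN in grey, WT IAA and WT ID in blue, the 9 mutant lines in red and group means as bars. For each gene the 6 WT libraries lie on one side of the 18 mutant libraries, and the spread between mutant lines is wide for Olfr459 and Clca3b and narrow for Klhl13.

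Of the 10 genes, Kirrel2 in Q418R lay closest to the limit of the rule, with an adjusted p of 0.0468, and of all 66 it was Spesp1 in R339Q (0.0493). Just outside it were Fhod1 in Q418R (0.0509) and Cdc14a in S354F (0.0538), each called in 8 lines, while Cpvl met the rule in 9 lines and was left out by an adjusted p of 0.0482 in WT IAA (all limma, Benjamini-Hochberg). These limits were chosen by the rule and separate values that hardly differ. Shares of all tested genes called in either direction were 20.7% in WT IAA, 8.09% in R377C, 9.80% in S354F, 21.5% in R339Q, 23.1% in H455R, 23.3% in R342C, 25.0% in Q418R, 25.1% in R377H, 32.0% in K365T and 45.8% in R448Q. All these comparisons share the 2 WT ID libraries.

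**Figure D2:**
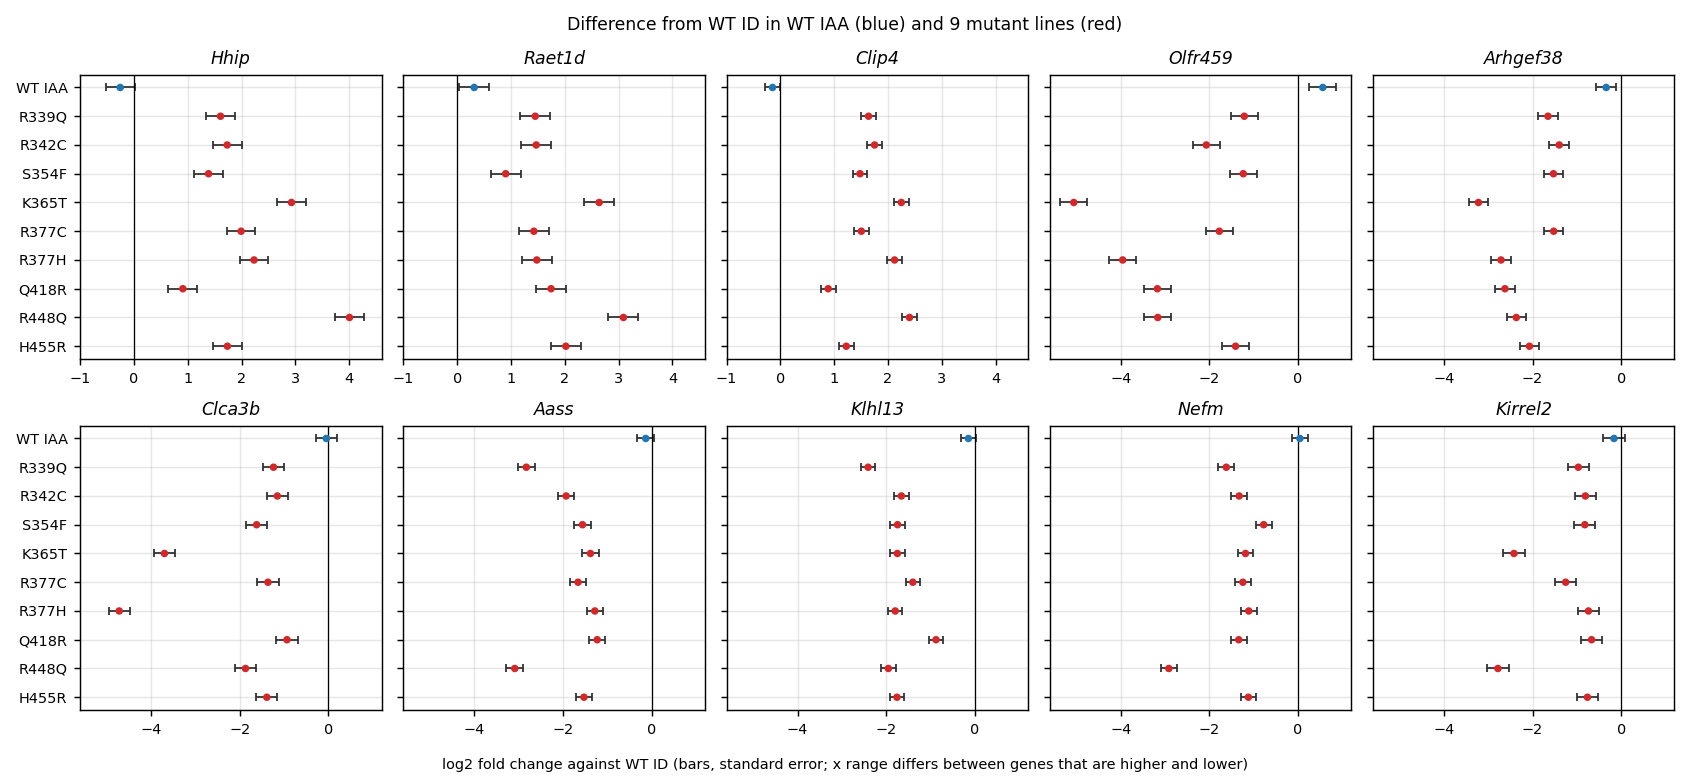
Log2 fold change of each gene against WT ID, with standard errors, in WT IAA (blue) and in 9 mutant lines (red). WT IAA lies within 0.56 of zero for each gene, and R448Q lies farthest from WT ID for 6 of the 10.

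Whether the 9 lines shifted these genes by the same amount was not part of the rule and was tested without the WT libraries in the contrast. Lines differed for each of the 10 genes by limma's moderated F test, with adjusted p-values from 7.60e-10 for Clca3b to 2.10e-05 for Raet1d. Such differences were common, since 76.0% of all tested genes passed the same test. The largest fold change of a gene exceeded its smallest by 2.85 times for Clip4, 2.89 for Klhl13, 3.54 for Arhgef38, 3.63 for Aass, 4.33 for Kirrel2, 4.41 for Nefm, 4.56 for Raet1d, 8.56 for Hhip, 13.8 for Clca3b and 14.4 for Olfr459. Order along the lines was only partly resolved: of 8 pairs of neighbouring lines per gene, libraries overlapped in 2 pairs for Clca3b, 3 for Hhip, Clip4 and Olfr459, 5 for Raet1d, Arhgef38 and Klhl13, 6 for Aass and Nefm, and 7 for Kirrel2.

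Each line was next compared with the mean of the other 8 by limma, adjusted over all tested genes. R448Q lay farther from WT ID than the others for 7 of 10 genes (Hhip, Raet1d, Clip4, Olfr459, Aass, Nefm, Kirrel2), beside 51.5% of all genes that differed in R448Q. The difference from the other lines was 2.19 ± 0.20 for Hhip (adjusted p 2.4e-08) and -1.70 ± 0.13 for Nefm (adjusted p 3.0e-09). Ctcf RNA was also 1.00 higher on the log2 scale in R448Q than in WT ID, and its part in these values was not tested. K365T lay farther for 7 genes as well (Hhip, Raet1d, Clip4, Olfr459, Arhgef38, Clca3b, Kirrel2) and nearer for Aass, beside 30.5% of all genes. There, Olfr459 differed from the other lines by -2.81 ± 0.23 (adjusted p 1.2e-07).

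Q418R was the mildest line for most of the set. It lay nearer to WT ID than the mean of the other 8 for 6 genes (Hhip, Clip4, Clca3b, Aass, Klhl13, Kirrel2) and farther for Olfr459 and Arhgef38, beside 38.4% of all genes called. Klhl13 was 0.93 ± 0.12 above the other lines there (adjusted p 6.8e-06) and Hhip 1.29 below them (-1.29 ± 0.20, adjusted p 4.2e-05). Its mildness did not extend to all genes of the series, of which 25.0% differed from WT ID in Q418R against 8.09% in R377C. S354F was nearer for 5 genes (Hhip, Raet1d, Olfr459, Arhgef38, Nefm; 14.7% of all genes called), H455R for 4 (31.1%), and R342C for 3 (38.0%). R339Q was nearer for Olfr459, Arhgef38 and Clca3b and farther for Aass and Klhl13 (22.8%). R377C was nearer for Arhgef38 and Clca3b (1.63%), and R377H farther for Clip4, Olfr459, Arhgef38 and Clca3b and nearer for Aass and Kirrel2 (30.6%). The median fold of the 10 genes against WT ID ranged from 2.12 in Q418R to 7.21 in R448Q.

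R377C and R377H change the same arginine of CTCF to different residues. Against R377H, 4 of the 10 genes differed in R377C by limma's test, where 19.0% of all genes did. In R377C Clca3b was 3.36 ± 0.24 higher on the log2 scale (adjusted p 4.4e-08), Olfr459 2.18 ± 0.30 higher (3.3e-05) and Arhgef38 1.19 ± 0.22 higher (adjusted p 0.00066). Clip4 was lower (-0.62 ± 0.14, adjusted p 0.0030), a call that was lost without R377C replicate 1 (adjusted p 0.055). All 4 lay nearer to WT ID in R377C. For Hhip, Raet1d, Aass, Klhl13, Nefm and Kirrel2 the differences were -0.24, -0.05, -0.38, 0.40, -0.13 and -0.51, with standard errors of 0.16 to 0.28, and did not pass.

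Across lines the lower genes did not move as a unit. Over 9 lines the log2 fold changes of Olfr459 and Arhgef38 had a Pearson r of 0.91 and those of Aass and Nefm of 0.82, while Olfr459 and Aass had -0.28. Among the higher genes Hhip had an r of 0.87 with Clip4 and 0.81 with Raet1d, and it mirrored Kirrel2 (r = -0.91). Each r rests on 9 points, and the genes of a line share its libraries and their depth. Lines far out, such as R448Q for Hhip and Kirrel2, weigh heavily, and the values are given as a description.

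Untreated cells were not used by the rule and provide a separate look at the same genes. For 10 of 10 genes the 2 WT UN libraries lay outside all 18 mutant libraries, on the side of WT ID, as they did on either side for 22.7% of all tested genes. Of these differences, 9 were at least 2-fold by mean TPM, where 9.84% of all tested genes were both apart and at least 2-fold. Only Nefm was below that size, at 1.83-fold. By mean TPM, Hhip was 7.10-fold, Clip4 4.66-fold and Raet1d 2.30-fold lower in WT UN than over the mutants, and Olfr459 was 6.79-fold, Aass 4.51-fold, Klhl13 3.07-fold, Arhgef38 2.88-fold, Clca3b 2.77-fold and Kirrel2 2.73-fold higher. WT UN comes from a separate table. Its 2 libraries had a read for 25463 and 25800 genes, fewer than any other library (lowest 26880, in K365T replicate 2). What that difference contributes was not tested. Against the mutants, the median tested gene stood at -0.19 in WT UN on the log2 TPM scale. With edgeR's quasi-likelihood test on reads recovered from both tables, which scales that shift away, 10 of 10 genes differed (largest adjusted p 0.0014, Raet1d), as did 54.7% of all genes. Olfr459 was then 12.1-fold higher and Hhip 6.90-fold lower in WT UN. These genes were chosen for levels in WT that differ from the mutants, so another WT group on the same side is not independent support.

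Against WT ID itself, the WT UN libraries did not overlap for 8 of 10 genes, near the 70.2% of all genes for which they did not, and the difference was less than 2-fold for each, from 1.04-fold (Klhl13) to 1.73-fold (Olfr459), where 12.2% of all genes were apart by at least 2-fold. The edgeR test called 4 of the 10 (40.5% of all genes): Olfr459 was 1.98-fold (adjusted p 0.0012), Raet1d 1.86-fold (adjusted p 0.035) and Aass 1.54-fold higher (adjusted p 0.0041) in WT UN, and Clip4 1.36-fold lower (adjusted p 0.035). Raet1d thus stood on the side of the mutants in untreated cells, and the other 3 were farther from the mutants than WT ID was. This count was 2 without either WT UN library or without WT ID replicate 1. Against WT IAA, libraries did not overlap for 7 of 10 genes (74.0% of all genes), no gene was both apart and 2-fold different (16.7% of all genes), and edgeR called Aass (1.68-fold, adjusted p 0.00079) and Kirrel2 (1.61-fold, adjusted p 0.014), both higher in WT UN, beside 45.7% of all genes. The count was 1 without WT UN replicate 1 or WT IAA replicate 1.

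The members lie on 8 chromosomes, and the genes beside them were examined for the same shift. Of the 2 nearest tested genes on each side (40 genes, 360 gene and line pairs) 20.0% were called in the member's direction and 8.06% in the other. Of all tested genes, the share called higher and lower against WT ID was 4.67% and 3.43% in R377C, 5.49% and 4.31% in S354F, 11.8% and 9.70% in R339Q, 12.6% and 10.5% in H455R, 10.0% and 13.3% in R342C, 11.2% and 13.8% in Q418R, 14.4% and 10.7% in R377H, 17.7% and 14.2% in K365T, 22.8% and 23.1% in R448Q, and 9.96% and 10.7% in WT IAA. The mean over the 9 lines was 12.3% higher and 11.4% lower. With 5 genes on each side the share was 17.8%. This excess came from a few places. The share was 44.4% of pairs beside Kirrel2, 38.9% beside Clip4, 36.1% beside Raet1d, 25.0% beside Hhip and 19.4% beside Nefm. It was 11.1% beside Aass and Clca3b, 8.33% beside Arhgef38 and 2.78% beside Olfr459 and Klhl13. Beside Hhip, Abce1, Anapc10 and Smarca5 were called higher in 3 lines each, and chromosome 8 as a whole shifted up in some lines, as given below. The 4 genes beside Klhl13 start 474 to 6345 kb from its start, so few of them are close.

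Raet1d lies in a run of overlapping NKG2D ligand genes that were higher in most lines. Raet1e, another RAE-1 gene that overlaps it, was called higher in 8 lines, with a median log2 fold change of 1.72. H60b, a ligand gene of the same receptor, was called higher in 6 lines (median 1.44) and was also 1.03 higher in WT IAA, where it was called. C920009B18Rik was called higher in 7 lines (median 2.37). H60b and C920009B18Rik lie, like Raet1d, within the span of Raet1e on the same strand, so the values of these genes are not shown to be separate signals. The next tested genes on the far side did not follow: Slc2a12 had a median of -0.78 and Tbpl1 of 0.02. Ulbp1, an NKG2D ligand gene farther off on chromosome 10, was called higher in 2 lines and lower in 3, and was lower in WT IAA (-1.25).

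Beside Kirrel2, the nephrin gene Nphs1, whose start lies 625 bases from that of Kirrel2 on the other strand, was called lower in 6 lines (median -0.90, lowest -2.57 in R448Q). Nphs1os within it was called lower in 3 lines (median -0.71), and Aplp1 on the other side in 5 (median -0.32). All 3 were lowest in R448Q and next lowest in K365T, as Kirrel2 was. Nefl, the light neurofilament gene, overlaps Nefm on the other strand and was called lower in 6 lines (median -0.59), less deeply than Nefm in each of the 9. It was called higher in WT IAA (0.44). Clca3a2, next to Clca3b, was near the filter (mean of 11.8 normalized counts) and was called lower in 4 lines (K365T, R377H, R448Q, H455R). Nefh, the heavy subunit gene on another chromosome, was named after its values were seen and was called higher in 4 lines, lower in none, and higher in WT IAA (0.69).

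**Figure D3:**
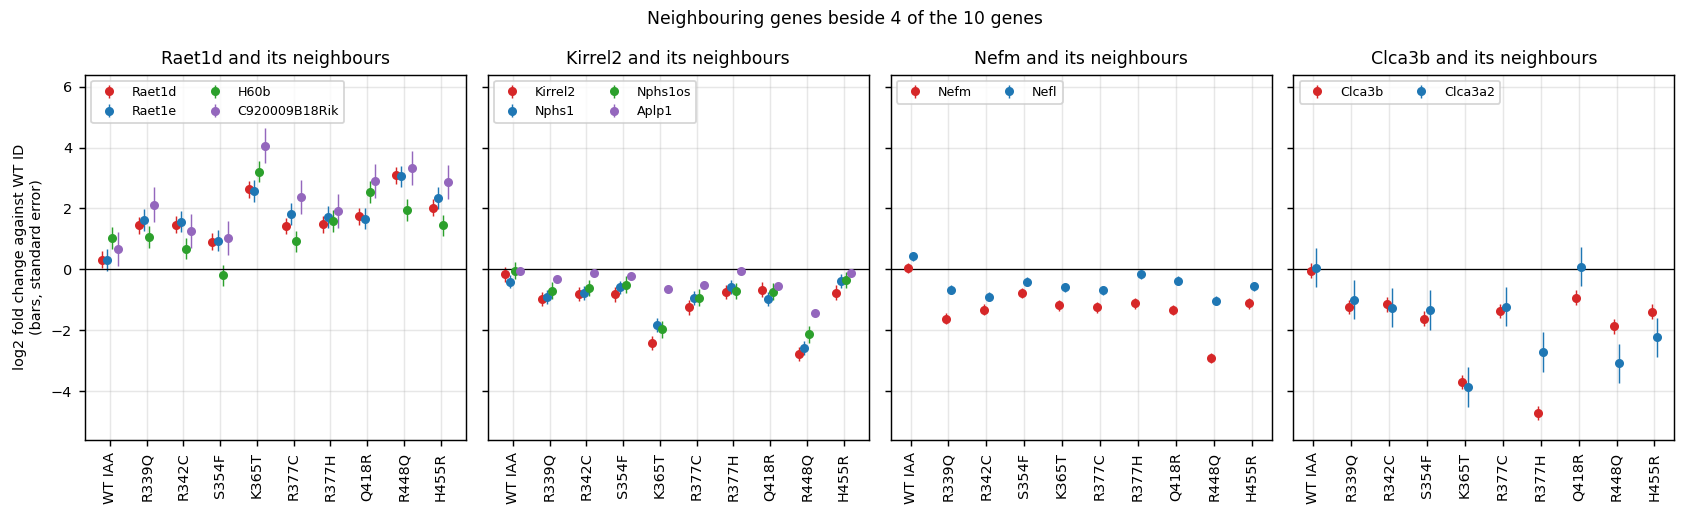
Log2 fold change against WT ID, with standard errors, of 4 of the genes (red) and of named neighbours (other colours) in WT IAA and 9 mutant lines. Raet1e tracks Raet1d and Nphs1 tracks Kirrel2 from line to line, while Nefl falls less than Nefm.

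Clip4 sits at the edge of a long stretch of chromosome 17 in which most genes were higher in the mutants. The window limits here were chosen after the values were seen. Over the 10 Mb before Clip4, 49 tested genes had medians of -0.02 to 0.09 in the 9 lines. In the 7 Mb after it, 19 tested genes had medians of 0.87 to 1.12 in all 9 lines, with 14 to 18 of the 19 called higher. From 7 to 24 Mb after it, 71 genes had medians of 0.91 to 0.96 in 8 lines, with 53 to 61 called higher, but a median of -0.08 in H455R, with 3 called higher. WT IAA stayed at 0.07 and -0.01 in those 2 windows, and WT UN at -0.10 and -0.19 by TPM, the latter equal to its shift over all genes. Of the 66 genes that met the rule, 14 lie on chromosome 17, and 11 of these were higher and lie within 24 Mb after the start of Clip4.

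The rise of Clip4 differed from that of the stretch after it in some lines. Less the median of the 19 genes, Clip4 was 1.41 higher in R448Q, 1.34 in K365T, 1.02 in R377H, 0.88 in R342C, 0.55 in R377C, 0.52 in R339Q and S354F and 0.29 in H455R, but -0.055 in Q418R. Alk, a receptor tyrosine kinase gene next to Clip4, was called higher in 5 lines (highest in Q418R, 3.47) and lower in H455R (-1.06). Ypel5, which starts 1068 kb after it, was called higher in 9 lines (median 0.69). Lclat1 and Wdr43 were named after their values were seen: the former, at 1339.5 kb, was called higher in 9 lines (median 0.94), and the latter, at -152.6 kb, had a median of -0.06. The cause of the stretch was not tested: from RNA of these lines, an altered copy number of the stretch and an effect of the mutant CTCF cannot be told apart, for Clip4 as for the 10 other rule genes there.

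**Figure D4:**
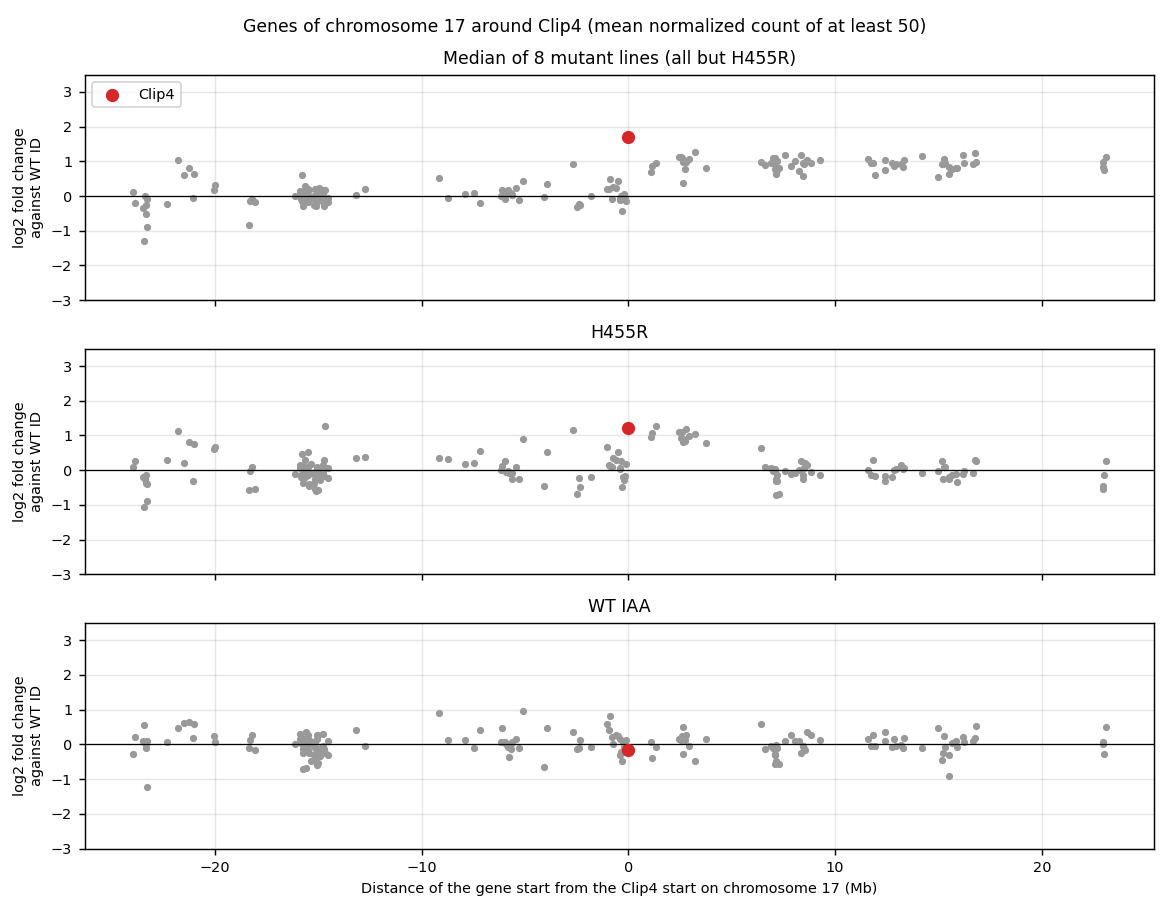
Log2 fold change against WT ID of genes of chromosome 17 within 24 Mb of the start of Clip4 (red), by distance in Mb. Genes with a mean of at least 50 normalized counts are shown, for the median of 8 mutant lines, for H455R and for WT IAA. Genes after Clip4 sit near 0.9 in the 8 lines up to 24 Mb, in H455R only within 7 Mb, and near 0 in WT IAA.

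For the other 9 genes, the median shift of their chromosome was small in most lines but not in all. Relative to all tested genes, chromosome 8 (Hhip) reached 0.47 in H455R and 0.45 in R448Q. Chromosome 3 (Arhgef38, Clca3b) reached 0.45 in R448Q, and chromosome 6 (Aass, Olfr459) fell to -0.46 in Q418R. The shift stayed within -0.17 to 0.07 for chromosomes 7, 10, 14 and X. Such shifts were not removed from the values of single lines given above. Genes within 10 Mb gave mean shifts of 0.12 for Hhip, 0.10 for Clca3b, -0.05 for Aass and 0.40 for Clip4. When the fit was centred along chromosomes, 9 of 10 members still met the rule, with Kirrel2 in Q418R lost. This centring removes the median of a whole chromosome, so it changes little where that median hardly shifts. For chromosome 17 the shift was -0.075 to 0.037, and the stretch after Clip4 was left in place. The centred fit therefore does not test Clip4, and it uses the comparisons that chose the genes.

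Genes of the members' own families and pathways were read from lists chosen with earlier results known. Medians over all tested genes were between -0.03 and 0.01 in the 9 lines. On average over the lines, 12.3% of all tested genes were called higher and 11.4% lower. Of 21 tested hedgehog pathway genes other than Hhip, 3 to 9 were called higher and 0 to 8 lower per line, or 28.0% and 11.6% of pairs, and list medians were 0.01 to 0.28. Evc2 and Evc, cilium proteins that pass the signal on from Smoothened, were called higher in 8 and 7 lines (medians 1.71 and 1.76). In Q418R, the line in which Hhip also rose least, Evc2 was called lower (-0.90) and Evc was at -0.97, not called. In K365T they were at 3.29 and 3.56. They moved alike from line to line and are not shown to be separate signals. Disp1, which releases the ligands, and Lrp2, a receptor that can take them up, were each called higher in 6 lines with medians of 0.30 and 0.41, and Lrp2 was also called higher in WT IAA (0.53). Gli1 and Ptch1, usual target genes of the pathway, were named after their values were seen. Gli1 was called higher in 5 lines and lower in none (median 1.00). Ptch1, which encodes the receptor, was called higher in 2 and lower in 1 (median -0.07). Hhipl1, Scube2 and Hhat were also named after their values were seen. Hhipl1 was called lower in 4 lines, higher in none (median -0.79), and lower in WT IAA (-0.97). Scube2 was called lower in 3 lines and higher in none (median -0.25). Hhat was called higher in 4 lines and lower in none (median 0.77).

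Other lists gave mixed values, to be read beside the 12.3% called higher and 11.4% called lower among all tested genes. CLIP and plus-end genes (9 tested) were called higher in 28.4% and lower in 6.17% of pairs, with small changes: Clip2 was called higher in 4 lines (median 0.23) and in WT IAA (0.65). Of 1407 olfactory receptor symbols, 25 other than Olfr459 passed the filter, and 5.33% of their pairs were called higher and 12% lower. Lysine breakdown genes (9 tested) were called higher in 14.8% and lower in 21% of pairs, with Dhtkd1 and Pipox lower in 4 lines each (medians -0.20 and -0.35) and the cationic amino acid transporter Slc7a2 called higher in 7 lines and in WT IAA (0.57) but lower in Q418R (-0.48). Dhtkd1 was also called lower in WT IAA (-0.55). KLHL and cullin 3 genes (11 tested) were called higher in 19.2% and lower in 26.3%, with Klhl9 called lower in 7 lines (median -0.32) and higher in Q418R (0.29). Intermediate filament genes (11 tested) were called higher in 24.2% and lower in 20.2%, and nephrin-related genes (8 tested) in 12.5% and 20.8%.

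Over the 11 groups of the main table, the genes whose mean levels followed those of a member most closely were on other chromosomes except beside Raet1d and Kirrel2. Hhip was most like Itgb3 (Pearson r 0.97), Raet1d like Raet1e (0.98), Clip4 like Cdca7l (0.97), Olfr459 like Abcb1a (0.96) and Arhgef38 like Mfsd10 (0.97). Clca3b was most like Chn2 (0.95), Aass like Dnaaf3 (0.93), Klhl13 like N4bp2l2 (0.95), Nefm like Tuba8 (0.96) and Kirrel2 like Nphs1os (0.98). Hdgfl3, called higher in 9 lines, was the second nearest to both Hhip and Raet1d (0.96 each). These values rank all genes by likeness over 11 groups and say nothing of shared function or control.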

How the data were processed

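Total RNA of 24 libraries (12 groups of 2) was sequenced from stranded, ribosomal RNA-depleted libraries, per the labels. Trim Galore, STAR, DESeq2 and mm10 are named, per the submitters' processing notes. Which program counted reads, and whether by strand, is not stated in the labels. The authors deposited a signal of gene counts divided by a size factor per library (normalized counts), and TPM, in a table of 22 libraries and a separate pair of tables for the 2 untreated ones. Reads were recovered by dividing each library by its smallest step (100% of values came out whole, within 0.001). No other columns were present.

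Normalized counts were taken as log2(count + 1) for 18713 genes with a mean of at least 10. A group model was fitted to 22 libraries with limma 3.58.1 (R 4.3.3, trend). Two-sided p-values were Benjamini-Hochberg adjusted, comparison by comparison, and an adjusted p under 0.05 was called. Fold changes of low genes are understated by the added count. Untreated cells were compared by mean TPM (+ 0.1), with edgeR 4.0.16 on recovered reads of 24 libraries beside it. Alternatives, including DESeq2 1.42.0, another pseudocount, no filter, a replicate block and omission of each library, are summarised at the end. Tests were tried on simulated data. The members and the gene lists were chosen with earlier results of these data known. Named genes are the members, up to 4 genes per list by the number of lines called (mean of at least 50), the nearest neighbours, and the 2 genes most like each member. Coordinates come from GENCODE M21 (mm10), and promoters from RefSeq. With 2 libraries per group, their number limits the precision. The level of a single neural marker and the counts of a single family list are not reported here.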

Additional observations from a re-analysis of the deposited data

Results flagged for a closer look

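The 9 lines differed from each other for each gene by limma's moderated F test. Adjusted p-values were 7.60e-10 for Clca3b, 7.42e-09 for Olfr459, 1.24e-07 for Aass, 1.27e-07 for Clip4, 2.23e-07 for Nefm, 2.28e-07 for Hhip, 3.90e-07 for Kirrel2, 2.07e-06 for Arhgef38, 1.42e-05 for Klhl13 and 2.10e-05 for Raet1d, beside 76.0% of all tested genes called. The sizes behind them were largest for Olfr459, between 2.32-fold and 33.4-fold lower than WT ID. The 33.4-fold value, in K365T, rests on 4 and 3 reads.

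Between the lines with a substitution of the same arginine, R377C was above R377H by 3.36 (log2) for Clca3b, 2.18 for Olfr459 and 1.19 for Arhgef38, and by -0.62 for Clip4, by limma's test. In both libraries of R377C the value lay on that side of both R377H libraries.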

How the results depend on the processing

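All 10 genes met the rule in the values reported. With each library left out in turn 5 to 10 did: 5 without WT_ID replicate 1, and 6 without WT_ID replicate 2 or S354F replicate 1. Other settings kept 8 or 9. The genes of the whole table that met it numbered 66, and 40 (without WT_ID replicate 1) to 82 when a library was left out. Of 90 gene and line values, no direction changed when a library was left out or under another setting of the fit. The Clip4 alternative below is apart. Under other settings, calls were lost in 17 of 630 values. They were those of Raet1d in S354F, Hhip in Q418R, and Kirrel2 in R342C, S354F, R377H, Q418R and H455R. Calls were also lost with a library left out, for Kirrel2 in all lines but K365T and R448Q. In most of these runs the omitted library belonged to neither group compared. A call could then change only through the shared spread and the adjustment. Without WT_ID replicate 2, the log2 fold change of Kirrel2 was -0.77 in R339Q, -0.61 in R342C and -0.63 in S354F. It was -0.54 in R377H, -0.47 in Q418R and -0.57 in H455R. The F test called 10 genes in each alternative run, and line against other lines 42 to 52 of 90 pairs (48 reported).

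For the untreated cells, edgeR called 4 genes against WT ID and 2 against WT IAA where the 2-fold TPM rule gave 0, with and without the replicate block. Omitting a library gave 2 to 4 and 1 to 2. The mean shift of Clip4's chromosome was -0.01, and 0.40 within 10 Mb. Less the median of the genes up to 7 Mb after it, Clip4 in Q418R turned from 0.89 to -0.055, an alternative chosen after seeing the data, and the cause was not tested. Without a filter, list genes numbered 681 in place of 122 and the share of pairs called was 6.17% in place of 35.7%, with 378 and 392 pairs called. Replicate numbers did not pair the samples (correlation of deviations -0.25 to 0.38 over 55 pairs of groups, median 0.02). With the replicate block 9 genes met the rule and Klhl13 was called between R377C and R377H (adjusted p 0.047, limma). With 2 libraries a group, leaving 1 out assumes the other varies like the rest.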
